A study of Mus musculus with 8 samples.

Results

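The transcripts of 10 matrix metalloproteinases were followed in mouse aorta: *Mmp2*, *Mmp3*, *Mmp8*, *Mmp9*, *Mmp11*, *Mmp12*, *Mmp13*, *Mmp14*, *Mmp19* and *Mmp23*. They were taken by gene symbol from a list, out of the 21859 genes in the files, where 22 genes carry a numbered Mmp symbol in all. The study asked which genes differ between the aorta of the apolipoprotein E knockout (*ApoE-/-*) mouse, a germline model that is prone to atherosclerosis, and the wild-type (WT) aorta. Total RNA of the whole aorta was sequenced from 4 *ApoE-/-* and 4 WT males, all 40 weeks old, on a normal (chow) diet and of the C57BL/6 strain, with 1 library per mouse. The sources used here do not give the lesion size of these aortas.

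Matrix metalloproteinases are zinc-dependent enzymes that cut the proteins outside the cell. Most are secreted as inactive proenzymes and are activated when a propeptide is removed, often by plasmin or by another metalloproteinase, while members with a furin site leave the cell active. Collagenases (MMP8, MMP13) open fibrillar collagen, gelatinases (MMP2, MMP9) digest the opened collagen and basement membrane, stromelysin (MMP3) cuts proteoglycans and activates other proenzymes, and the macrophage elastase (MMP12) digests elastin. Tissue inhibitors of metalloproteinases (TIMPs) block the active enzymes. In atherosclerotic arteries these enzymes are known from foam cells, smooth muscle cells and fibroblasts, and from studies of fibrous cap thinning and loss of elastic layers. An mRNA level says nothing of how much of the proenzyme was made or activated.

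The members lie on 6 chromosomes of GRCm38, and 4 of them lie in 1 cluster on chromosome 9, on the plus strand, in the order *Mmp13* (7272514 to 7283331), *Mmp12* (7344381 to 7369499), *Mmp3* (7445822 to 7455975) and *Mmp8* (7558456 to 7568485). These 4 include the members that differed most between genotypes and the rarest one, so the 120 bases before their RefSeq transcription starts are shown (GRCm38.p6, plus strand, 5′ to 3′). Capitals mark the AP-1 motif (TGANTCA) and the TATA box (TATAAA).
Mmp13, chr9:7272394-7272513: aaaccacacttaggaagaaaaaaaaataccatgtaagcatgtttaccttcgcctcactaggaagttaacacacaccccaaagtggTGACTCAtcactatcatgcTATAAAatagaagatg
Mmp12 first start, chr9:7344277-7344396: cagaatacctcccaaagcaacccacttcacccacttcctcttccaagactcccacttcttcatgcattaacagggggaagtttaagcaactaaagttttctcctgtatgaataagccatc
Mmp12 second start, chr9:7347254-7347373: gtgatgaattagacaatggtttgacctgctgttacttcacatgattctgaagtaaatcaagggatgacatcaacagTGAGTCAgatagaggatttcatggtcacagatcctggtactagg
Mmp3, chr9:7445702-7445821: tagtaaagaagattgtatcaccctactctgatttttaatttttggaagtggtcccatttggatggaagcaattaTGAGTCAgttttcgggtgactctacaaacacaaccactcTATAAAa
Mmp8, chr9:7558309-7558428: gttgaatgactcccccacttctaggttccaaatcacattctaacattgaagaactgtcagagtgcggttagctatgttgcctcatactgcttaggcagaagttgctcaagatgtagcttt
The AP-1 letters stood 35 to 29 bases before the start of *Mmp13*, 44 to 38 before the second start of *Mmp12* and 46 to 40 before that of *Mmp3*. In the 250 bases searched on both strands, they were found in none of the windows of *Mmp8*, *Mmp11*, *Mmp14* and *Mmp23* nor at the first start of *Mmp12*, and in 6.75% of all 32851 promoters of the same table. The TATA letters were found at *Mmp13* (16 to 11 bases before the start) and *Mmp3* (7 to 2), and in 12.4% of all promoters. The ETS letters AGGAAG, present in 29.5% of promoters, occurred at *Mmp3*, *Mmp8*, *Mmp13*, *Mmp14* and the first start of *Mmp12*, and the RUNX letters TGTGGT, in 14% of promoters, at *Mmp13*, *Mmp14* and 1 of 2 starts of *Mmp23*. None of these motifs overlapped another. They are matches of letters, and binding was not measured. RefSeq promoters were matched for 7 of the 10 members, and those of *Mmp2*, *Mmp9* and *Mmp19* were not analysed here.

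Read pairs on genes numbered 23240995 to 23940156 in *ApoE-/-* and 18375898 to 21664598 in WT libraries, and levels are given as TMM-normalized CPM, that is, counts scaled to a common library size. The share of pairs that fell on genes also differed without overlap, at 32.3% to 35.6% in *ApoE-/-* and 27.9% to 30.2% in WT libraries, and its part in the results was not tested. *Apoe* stood at 14.7 to 36.3 CPM in *ApoE-/-* and at 536 to 857 CPM in WT mice, as the labels say. Smooth muscle markers were present in all libraries, but *ApoE-/-* replicate 1 stood apart, with a summed level of 4708 CPM for 7 markers against 11940 to 19460 in the other *ApoE-/-* and 10500 to 19820 in the WT libraries, and with 3442 CPM of 5 sympathetic neuron markers against 7.52 to 589 elsewhere. In *ApoE-/-* replicate 3, 8 chondrocyte markers summed to 499.5 CPM against 72.4 to 105.6 in the other 7 libraries. The summed level of 8 cardiac muscle markers was 155 to 337 CPM in *ApoE-/-* and 394 to 661 in WT mice, where edgeR called none of the 8 (7 had an unadjusted p under 0.05) and DESeq2 called 4, all lower (5 and 7 without *ApoE-/-* replicate 1). Results are therefore also given without *ApoE-/-* replicate 1.

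Genotypes were compared with edgeR's quasi-likelihood F test over 15077 genes, where a gene is called at a Benjamini-Hochberg adjusted p under 0.05. *Mmp12* and *Mmp13* were called, both higher in *ApoE-/-* mice, where 0.371% of all tested genes were called higher and 0.464% in either direction. All 9 members tested had a positive log2 fold change, with a median of 1.08 against 0.0474 over all genes tested, and 5.44% of those genes exceeded a log2 fold change of 1. The 4 *ApoE-/-* values lay above the 4 WT values for 5 of these 9 members, *Mmp2*, *Mmp3*, *Mmp12*, *Mmp13* and *Mmp14*, compared with 5.41% of all tested genes. *Mmp8*, the member that the low-count filter removed, was the sixth of the 10 with this pattern. DESeq2, the tool named in the methods of the study, called these 6, where it called 2.84% of the genes higher. Without *ApoE-/-* replicate 1, edgeR called *Mmp2*, *Mmp3*, *Mmp12*, *Mmp13* and *Mmp14*, where it called 2.75% of the genes higher. In other settings the count was lower. Limma-voom called 0 members, edgeR with a block for the replicate number 0, edgeR without any other mouse 0 (in each of these fits 6 of the 9 tested had an unadjusted p under 0.05), and edgeR without a filter on low counts 1, *Mmp13*. It stayed at 2 in edgeR with DESeq2 size factors, upper-quartile factors, another filter or no robust estimation. Over all genes, 1643 of 15077 had an unadjusted p under 0.05 in limma-voom and 1723 with the block. In the edgeR fits without any mouse other than *ApoE-/-* replicate 1, it was 1269 to 1922 of 15151 to 15236 genes.

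**Figure D1:**
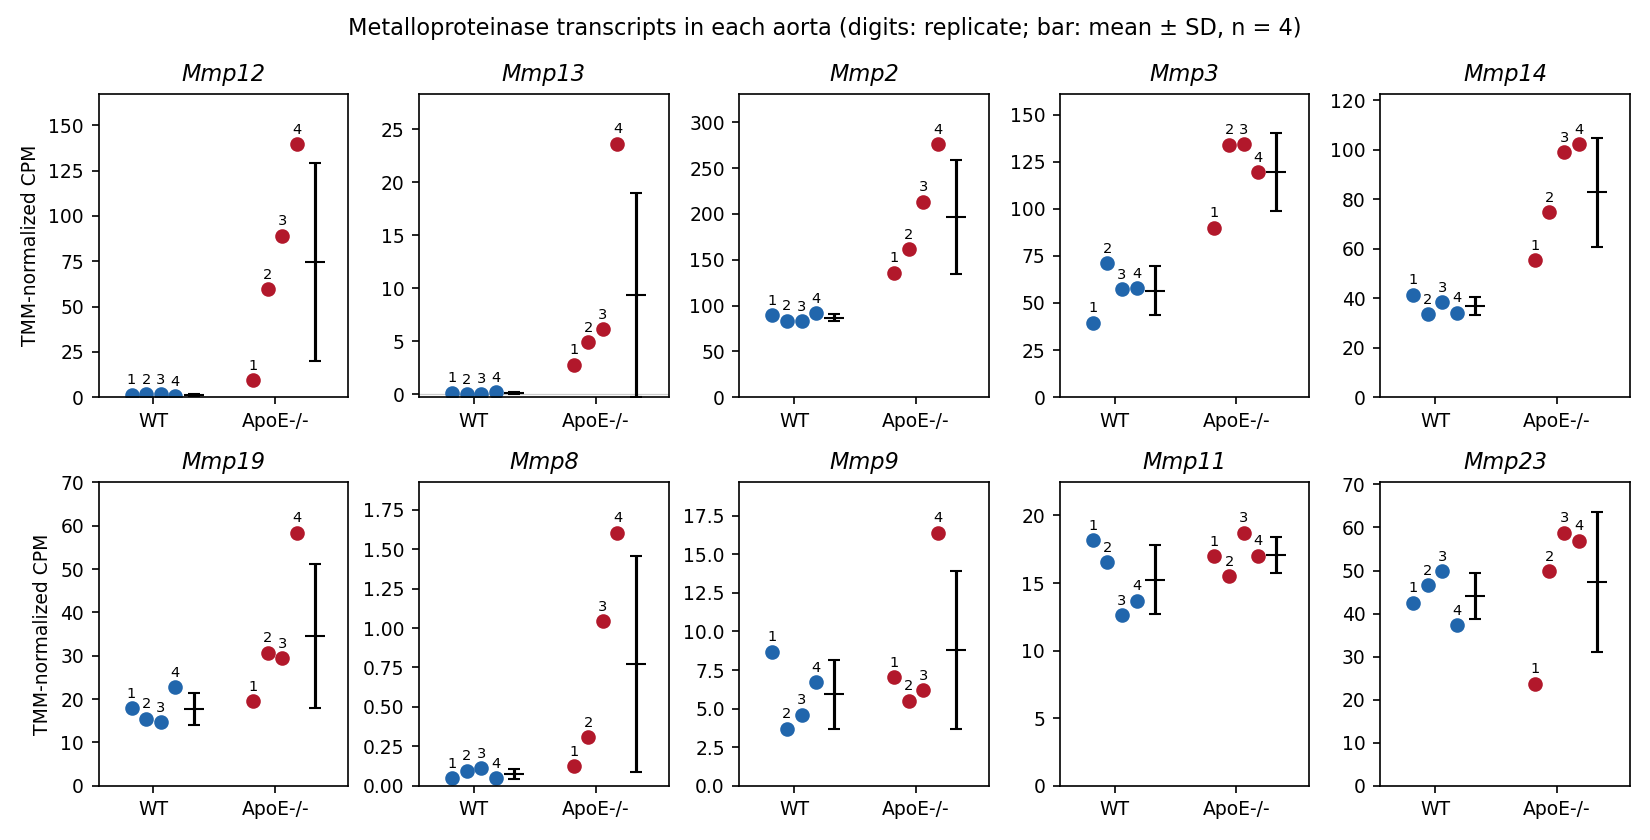
TMM-normalized CPM of the 10 genes in each WT (blue) and *ApoE-/-* (red) aorta, 1 point per mouse with its replicate number, and bars for the mean ± SD (n = 4); the y axes differ between genes, and the SD bar of *Mmp13* reaches below 0. The upper row and *Mmp8* include the 6 genes without overlap between genotypes, while *Mmp9*, *Mmp11*, *Mmp19* and *Mmp23* overlap.

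*Mmp12*, the macrophage elastase, was close to absent in WT aorta. It stood at 1.33, 1.73, 1.66 and 0.527 CPM in WT replicates 1 to 4 (11 to 37 counts) and at 9.21, 59.7, 89.1 and 139.6 CPM in *ApoE-/-* replicates 1 to 4. Every *ApoE-/-* mouse was above every WT mouse, and the lowest *ApoE-/-* value was 5.32 times the highest WT value, but the *ApoE-/-* mice themselves spanned a wide range, with replicate 1 far below the other three. The fitted difference was 56.6-fold (log2 fold change 5.82, SE 0.85, adjusted p = 0.0396 in edgeR, DESeq2 adjusted p = 1.15e-14), and by p *Mmp12* ranked 47 of all genes tested. Leaving out *ApoE-/-* replicate 1 gave a log2 fold change of 6.19 (edgeR adjusted p = 0.00188), and leaving out any other mouse ended the edgeR call (adjusted p from 0.0585 to 0.169) with a log2 fold change between 5.32 and 5.99. It also missed the threshold in limma-voom (adjusted p = 0.145) and in edgeR without a low-count filter (adjusted p = 0.0519). DESeq2 called it in all 8 fits of 7 mice. The 3′ end of *Mmp12* overlaps *Mmp1b* on the minus strand, and *Mmp1b* had 0 counts in all 8 libraries.

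Markers of macrophages moved with *Mmp12*. Of 15 markers, all had a positive log2 fold change, 13 were without overlap, and edgeR called *Fcgr1*, the high-affinity Fc receptor, and *Trem2*, a lipid-sensing receptor of foam cells. DESeq2 called 10, and without *ApoE-/-* replicate 1 the counts were 10 in edgeR and 13 in DESeq2. Of the 8 fits without a mouse, edgeR called *Fcgr1* and *Trem2* only in that 1, and DESeq2 called them in all 8. The summed level of the 15 markers was 685, 1371, 1701 and 3168 CPM in *ApoE-/-* replicates 1 to 4 and 553 to 659 CPM in WT mice. *Cd68*, a lysosomal macrophage protein, was at 12.7 to 64.3 against 5.54 to 9.09 CPM. The *ApoE-/-* library that was lowest in *Mmp12* was thus also lowest in these markers, and the highest was also highest. In RNA of a whole tissue, more cells of a type and more RNA per cell cannot be told apart.

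*Mmp12* was therefore set against this list in each mouse, as log2 CPM of *Mmp12* minus the mean log2 CPM of the 15 markers. The ratio was -1.62, 0.32, 0.60 and 0.40 in *ApoE-/-* replicates 1 to 4 and -3.92, -3.40, -3.26 and -5.09 in WT replicates 1 to 4. The groups did not overlap, and the mean ratio was higher in *ApoE-/-* mice by 3.85 on the log2 scale (exact permutation over the mice, two-sided p = 0.0286, below which 4 against 4 cannot go, and 0.0429 after adjustment over the 3 ratios tested). *Mmp12* was thus higher relative to the mean of these markers, whose own log2 fold changes had a median of 1.58 and ran from 0.0076 (*Cd163*, a scavenger receptor, named after its values were seen) to 4.10 (*Trem2*). *Trem2* stood at 5.07 to 40.8 CPM in *ApoE-/-* and 1.03 to 1.61 CPM in WT mice, and the ratio of *Mmp12* to it or to any other single marker was not tested. Which cells carried it was not measured.

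*Mmp13*, the main interstitial collagenase of the mouse, had almost no counts in WT aorta, with 3, 0, 1 and 4 counts in WT replicates 1 to 4 (0.138, 0, 0.0554 and 0.192 CPM). The 4 *ApoE-/-* libraries held 69, 112, 141 and 545 counts in replicate order (2.80, 4.90, 6.14 and 23.7 CPM). The groups were far apart, and *ApoE-/-* replicate 4 held most of the counts. Over the group, 867 counts stood against 8, a depth-corrected ratio of 95.2 with a 95% interval of 48.1 to 221 for counting error only, since 3 of 4 WT libraries held 3 counts or fewer. The fitted log2 fold change, which depends on the prior count at this depth, was 6.51 (SE 0.99, adjusted p = 0.0438 in edgeR, DESeq2 adjusted p = 9.99e-11). It was 6.81 without *ApoE-/-* replicate 1 (edgeR adjusted p = 0.00871) and 5.49 without replicate 4, and leaving out any mouse other than replicate 1 ended the edgeR call (adjusted p from 0.0585 to 0.171). Hypertrophic cartilage is a known source of *Mmp13*. *ApoE-/-* replicate 3, the library with the high chondrocyte markers, had 6.14 CPM of *Mmp13*, and replicate 4, with 23.7 CPM, had a marker sum of 105.6 CPM. The marker sum of replicate 3 was mostly *Col2a1* (240 CPM), *Acan* (123 CPM) and *Comp* (89.4 CPM). There *Col10a1* (11.1 CPM) and *Col11a1* (14.2 CPM) lay within the range of the other libraries. The part of cartilage in the *Mmp13* counts was not tested.

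*Mmp8*, the collagenase stored in neutrophil granules, was the rarest member. Its counts were 3, 7, 24 and 37 in the *ApoE-/-* libraries, in replicate order (0.122, 0.306, 1.05 and 1.61 CPM) and 1, 2, 2 and 1 counts in WT mice (0.0459 to 0.111 CPM). No *ApoE-/-* value was as low as a WT value, but the lowest *ApoE-/-* and the highest WT library differed by a single count. The 71 counts of *ApoE-/-* mice were 10.4 times the 6 of WT mice after correction for depth (95% interval 4.54 to 29.3, counting error only). edgeR did not test it for its low counts and, without the filter, gave an adjusted p of 0.156, whereas DESeq2 gave a log2 fold change of 3.38 (SE 1.02, adjusted p = 0.0263), a call that held in 2 of the 8 fits that left out a mouse. Of 11 neutrophil markers, 3 passed the filter and *Csf3r*, the G-CSF receptor, was called by edgeR (2 of the 3 had an unadjusted p under 0.05). DESeq2 called *Csf3r*, *S100a8* and *S100a9*. Of the 8 fits without a mouse, edgeR called *Csf3r* only in that without *ApoE-/-* replicate 1, and DESeq2 called it in all 8. The summed level of the list was 8.45 to 19.2 CPM in *ApoE-/-* and 3.71 to 5.32 CPM in WT mice. *Csf3r* and the calprotectin subunits *S100a8* and *S100a9* were without overlap, the other 8 markers overlapped, among them the granule genes *Elane* (0.218 to 1.69 against 0.749 to 1.58 CPM) and *Ltf* (0.203 to 0.304 against 0.187 to 0.688 CPM), and the defining genes *Ly6g* and *Mpo* had 3 counts or fewer in every library. The part of neutrophils in the *Mmp8* counts was not tested.

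*Mmp2*, the gelatinase that mesenchymal cells make without stimulation, was abundant in both genotypes. It stood at 89.6, 83.6, 83.0 and 91.3 CPM in WT replicates 1 to 4 and at 136, 161, 214 and 276 CPM in *ApoE-/-* replicates 1 to 4. The WT values were close together and below all *ApoE-/-* values. The fold was 2.26 (log2 fold change 1.18, SE 0.21), which missed the edgeR threshold (adjusted p = 0.0597) and passed it without *ApoE-/-* replicate 1 (adjusted p = 0.00871) and in DESeq2 (adjusted p = 9.29e-05, and in all 8 fits of 7 mice).

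*Mmp14* encodes MT1-MMP, the membrane-bound enzyme that activates pro-MMP2 at the cell surface. It stood at 41.4, 33.5, 38.3 and 34.1 CPM in WT mice and at 55.4, 74.7, 99.0 and 102 CPM in *ApoE-/-* mice. Again no value overlapped, and the size of the difference was close to that of *Mmp2*, with a log2 fold change of 1.17 (SE 0.20, adjusted p = 0.0526 in edgeR, DESeq2 adjusted p = 4.82e-05). Without *ApoE-/-* replicate 1 the edgeR adjusted p was 0.00621. Among 14207 genes with a mean of at least 1 CPM, *Mmp14* was the third closest in pattern to *Mmp2*, with a root mean square difference of 0.13 on the log2 scale over the 8 libraries, each gene centred on its WT mean. The others among the 5 closest were *Irf5* (0.11), *Sirpa* (0.13), *Syk* (0.14) and *Tnfrsf1b* (0.14), genes known from myeloid cells and other leukocytes.

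*Mmp3* encodes stromelysin, which mesenchymal cells release and which activates the collagenases. It stood at 39.5, 71.1, 57.2 and 57.9 CPM in WT replicates 1 to 4 and at 90.0, 134, 134 and 119 CPM in *ApoE-/-* replicates 1 to 4. The groups did not overlap, and the lowest *ApoE-/-* value was 1.27 times the highest WT value. With a log2 fold change of 1.08 (SE 0.20), *Mmp3* missed the edgeR threshold (adjusted p = 0.0634), passed it without *ApoE-/-* replicate 1 (adjusted p = 0.0144) and was called by DESeq2 (adjusted p = 0.000313).

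Fibroblast markers, listed because mesenchymal cells are known to make *Mmp2*, *Mmp3* and *Mmp14*, overlapped between genotypes in 8 of 9 genes. Their summed level was 5166 to 12290 CPM in *ApoE-/-* and 6036 to 7195 CPM in WT mice, and *Pdgfra*, a receptor of fibroblasts, was at 114 to 265 against 138 to 150 CPM. edgeR called 0 of the 9 (2 had an unadjusted p under 0.05) and DESeq2 called 1, *Lum*, a collagen-binding proteoglycan, at 226 to 797 against 88.7 to 118 CPM. Without *ApoE-/-* replicate 1, the fit in which *Mmp2*, *Mmp3* and *Mmp14* were called, both tools called 4 of the 9 higher, *Pdgfra*, *Lum* and the collagen genes *Col1a1* and *Col1a2*, and the median log2 fold change was 0.64. These markers thus moved with the enzymes in that fit, and their part in the result was not tested. The ratio to *Mmp2* given next cannot separate more cells from more RNA per cell. The ratio of *Mmp2* to this list was -1.18, -1.76, -1.48 and -1.55 on the log2 scale in *ApoE-/-* replicates 1 to 4 and -1.94, -2.15, -2.15 and -2.10 in WT replicates 1 to 4. All *ApoE-/-* ratios were above all WT ratios, by 0.59 on average (exact permutation over the mice, two-sided p = 0.0286, or 0.0429 after adjustment over 3 ratios). The log2 fold changes of the fibroblast list had a median of 0.455 and ran from -0.174 to 2.34, and that of *Mmp2* was 1.18. *Lum* (2.34) and *Col1a1* (1.23) were above *Mmp2*, and the other markers were below it. Whether the enzymes came from fibroblasts, smooth muscle cells or macrophages was not measured.

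**Figure D2:**
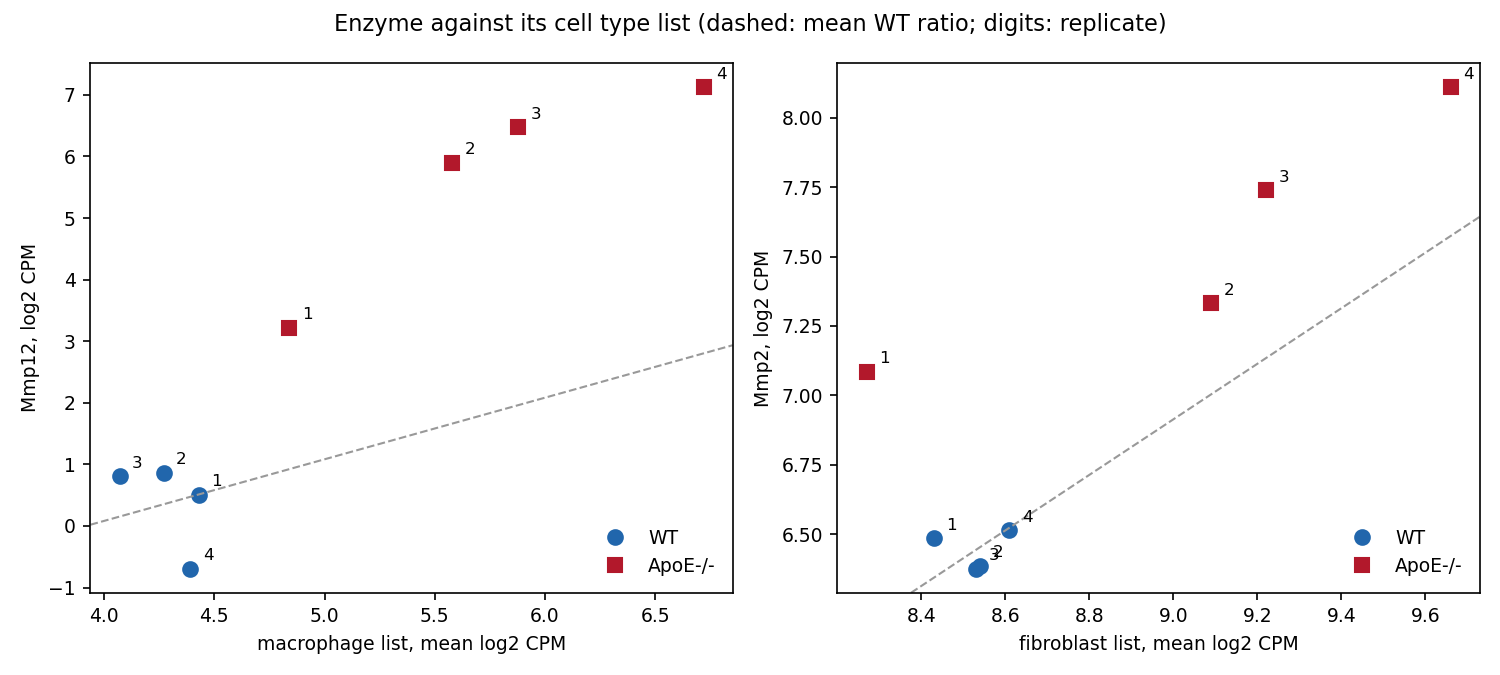
Log2 CPM of *Mmp12* against the mean log2 CPM of 15 macrophage markers (left) and of *Mmp2* against 9 fibroblast markers (right), 1 point per mouse with its replicate number, and a dashed line at the mean WT ratio. All 4 *ApoE-/-* mice lie above the line in both panels, by a mean of 3.85 for *Mmp12* and 0.59 for *Mmp2*.

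*Mmp9*, the gelatinase of macrophages, neutrophils and osteoclasts, did not separate the genotypes. It stood at 8.67, 3.70, 4.60 and 6.70 CPM in WT replicates 1 to 4 and at 7.02, 5.51, 6.19 and 16.4 CPM in *ApoE-/-* replicates 1 to 4. A single library, *ApoE-/-* replicate 4, was above the range of the others, and 1 WT library was higher than the remaining 3 *ApoE-/-* libraries. The log2 fold change was 0.57 (SE 0.42, adjusted p = 0.734 in edgeR) and 0.08 without that library. The summed markers of all 3 cell types were also highest in that library. They were 3168 CPM against 685 to 1701 in the other *ApoE-/-* libraries for macrophages, 19.2 against 8.45 to 12.7 for neutrophils and 246 against 140 to 157 for osteoclasts. The osteoclast sum there was mostly *Acp5*, *Ctsk* and *Nfatc1*, which other cells also express, while *Calcr* was at 0 and *Ocstamp* and *Dcstamp* at 0.434 and 0.651 CPM. In replicate 4 the summed fibroblast, T cell, endothelial and adipocyte markers were also the highest of the *ApoE-/-* libraries. The trait was therefore not particular to the 3 cell types. The B and plasma cell, smooth muscle, chondrocyte, cardiac muscle, skeletal muscle, mesothelial and neuron sums were highest in other *ApoE-/-* libraries. The part of any of these cells in the *Mmp9* value was not tested.

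*Mmp9* is the member for which a quantitative PCR assay of other aortas was designed, so its primers show which transcript part that assay reads. Both match only *Mmp9* and lie in the coding sequence of Mmp9-201, in exons 2 and 3 of 13, with an amplicon of 145 bp (plus strand of GRCm38 for the first).
Mmp9 forward, chr2:164948952-164948972: ctggacagccagacactaaag
Mmp9 reverse, chr2:164949295-164949314, minus strand: ctcgcggcaagtcttcagag
The counts used here cover all exons of the gene (chr2:164940780-164955850), and no PCR values were analysed.

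The remaining members overlapped as well. *Mmp19* (chr10:128790910-128800824), an enzyme of macrophages and vessel wall cells, had 17.9, 15.5, 14.7 and 22.7 CPM in WT and 19.6, 30.7, 29.5 and 58.4 CPM in *ApoE-/-* replicates 1 to 4. Only *ApoE-/-* replicate 1 fell within the WT range, and the log2 fold change was 0.96 (SE 0.32, adjusted p = 0.268 in edgeR) with all mice and 1.16 (adjusted p = 0.0596) without that library. DESeq2 gave an adjusted p of 0.0999 with all mice and of 0.00228 without that library, where it called *Mmp19* as the seventh member. That fit called 1548 genes, 873 of them higher, against 721 genes with all mice. *Mmp19* is overlapped on the opposite strand by *Gm47093* and *Tmem198b*.

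*Mmp11* (chr10:75923222-75936496), stromelysin of the furin-activated kind, known from fibroblasts near tumours, had 18.2, 16.5, 12.6 and 13.7 CPM in WT and 17.0, 15.5, 18.7 and 17.0 CPM in *ApoE-/-* replicates 1 to 4. Its values lay within a narrow range in both genotypes (log2 fold change 0.16, SE 0.14, adjusted p = 0.783 in edgeR). *Chchd10* overlaps *Mmp11* on the opposite strand. *Mmp23* (chr4:155650655-155653384), a membrane-anchored member with a furin site, had 42.5, 46.5, 49.8 and 37.3 CPM in WT and 23.7, 49.8, 58.8 and 56.9 CPM in *ApoE-/-* replicates 1 to 4. Its log2 fold change of 0.10 (SE 0.27, adjusted p = 0.937 in edgeR) joined a low *ApoE-/-* replicate 1 to 3 libraries at or above the highest WT value, and it was 0.33 without replicate 1 and -0.017 without replicate 3.

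To compare levels between genes, normalized CPM were divided by the length of the annotated exons in kilobases. On this scale *Mmp3* and *Mmp2* led in both genotypes, at 31.3 ± 7.22 and 25.8 ± 1.25 (SD, n = 4) in WT and 66.3 ± 11.6 and 58.3 ± 18.4 in *ApoE-/-* mice, and neither was above the other beyond the spread. *Mmp23* (18.8 ± 2.30 and 20.2 ± 6.92) came next, apart from both. In WT mice *Mmp14* (6.18 ± 0.63), *Mmp11* (5.49 ± 0.92) and *Mmp19* (5.01 ± 1.03) followed without separation, then, each apart from its neighbours, *Mmp9* (1.67 ± 0.63) and *Mmp12* (0.181 ± 0.076), and last *Mmp13* (0.036 ± 0.032) and *Mmp8* (0.031 ± 0.013), which overlapped. In *ApoE-/-* mice *Mmp14* (13.9 ± 3.70), *Mmp12* (10.3 ± 7.54), *Mmp19* (9.77 ± 4.72), *Mmp11* (6.14 ± 0.47), *Mmp13* (3.51 ± 3.60) and *Mmp9* (2.48 ± 1.45) formed a series in which no neighbours differed beyond their spread, and *Mmp8* (0.317 ± 0.283) was last. With the longest transcript as the length, *Mmp23* in WT mice came to 30.7 and passed *Mmp2* (28.2), *Mmp14* came to 11.4 in WT and 25.6 in *ApoE-/-* mice, and *Mmp12* to 16.6 in *ApoE-/-* mice, so that levels between genes depend on the length taken.

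Summed over the 10 genes, the level per kilobase was 126, 182, 212 and 246 in *ApoE-/-* replicates 1 to 4 and 87.9, 102, 94.4 and 94.3 in WT replicates 1 to 4. All *ApoE-/-* sums were above all WT sums. *Mmp2* and *Mmp3* made up 30.4% and 35.7% of the sum in *ApoE-/-* and 27.4% and 32.9% in WT mice, or 27.8% and 29.9% and 24.5% and 26.9% with the longest transcript as the length. *Mmp12* took 4.80% on average in *ApoE-/-* mice (1.01% to 7.85%) and 0.191% in WT mice, whereas *Mmp23* took 10.4% and 19.9%, and *Mmp11* 3.40% and 5.84%. With the longest transcript as the length, *Mmp12* took 6.44% on average in *ApoE-/-* mice (1.41% to 10.5%) and 0.252% in WT mice. On average, the members that differed most between genotypes were thus a small part of the sum over these 10 genes. The larger part of the added level per kilobase was *Mmp2* and *Mmp3*. Mmp genes outside the 10 were not in this sum.

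**Figure D3:**
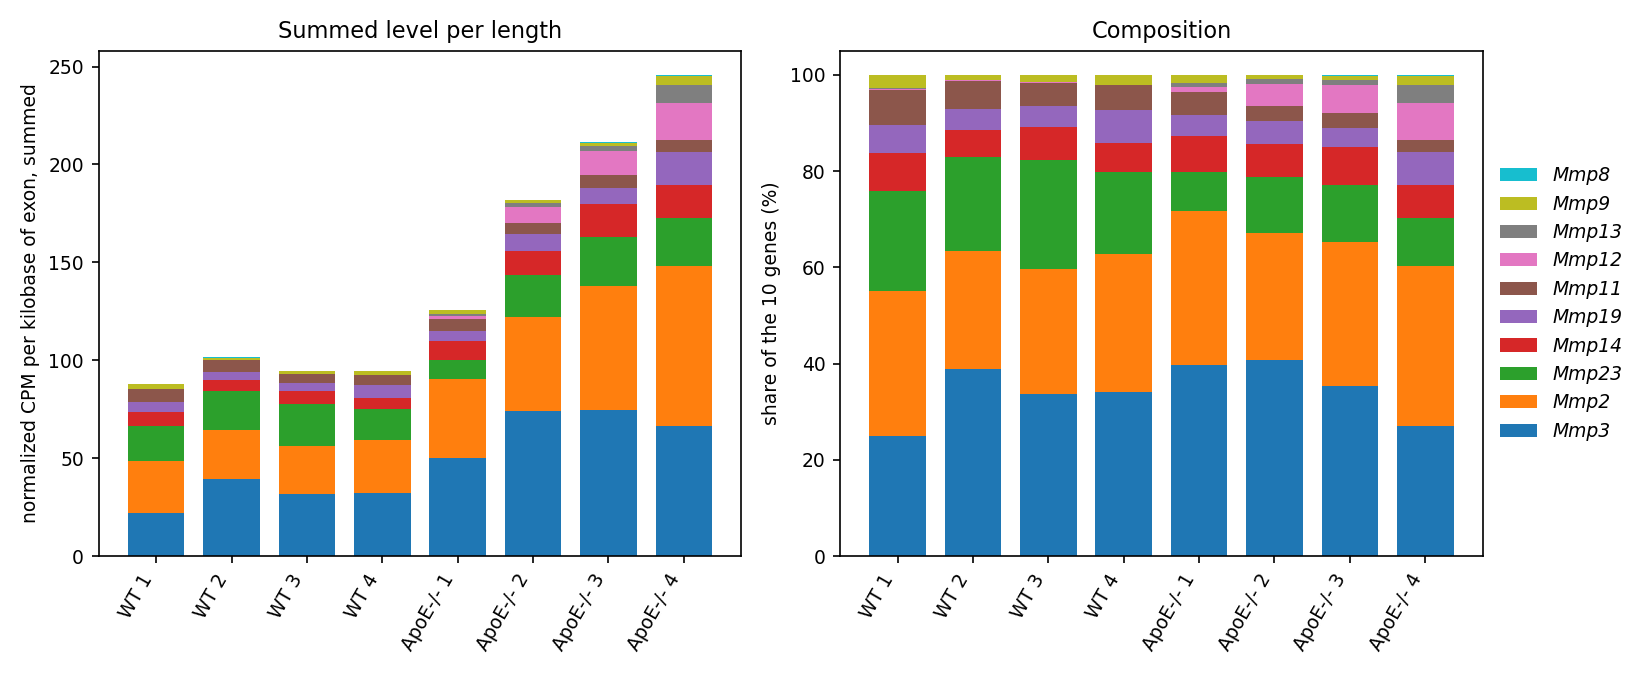
Normalized CPM per kilobase of exon summed over the 10 genes in each library (left) and the share of each gene in that sum (right). The *ApoE-/-* sums, 126 to 246, lie above the WT sums, 87.9 to 102, and the *Mmp12* band takes 1.01% to 7.85% of the sum in *ApoE-/-* libraries and 0.191% on average in WT libraries.

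The genes closest to *Mmp12* in pattern, by the same measure as for *Mmp2*, were *Itgax* (root mean square difference 1.03), the CD11c integrin chain, *Atp6v0d2* (1.04), a proton pump subunit of macrophages and osteoclasts, *Mmp13* (1.04), *Spp1* (1.05), osteopontin, and *Grin2a* (1.18), a glutamate receptor subunit. They were several times farther from *Mmp12* than the neighbours of *Mmp2* were from *Mmp2*. *Itgax* rose from 1.53 ± 0.33 to 33.5 ± 21.2 CPM (SD, n = 4, log2 fold change 4.44, SE 0.61, adjusted p = 0.0380 in edgeR), and *Grin2a* from 0.317 ± 0.146 to 14.6 ± 15.6 CPM (log2 fold change 5.50, SE 0.87, adjusted p = 0.0462 in edgeR). *Spp1* stood at 239 to 1526 CPM in *ApoE-/-* and 6.66 to 82.3 CPM in WT mice (edgeR adjusted p = 0.0660). Since genes are centred on their WT mean, this measure mostly reflects the size of the genotype difference, and within WT mice the order can differ. *Mmp12* was lowest in WT replicate 4 (0.527 CPM), where *Mmp13* was highest (0.192 CPM).

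Of the 12 other Mmp genes in the files, edgeR called 0 of 8 tested (1 had an unadjusted p under 0.05), DESeq2 called 0 of 6 and gave no adjusted p for *Mmp15* and *Mmp24*, and all 8 overlapped. Their median log2 fold change was 0.398. Elsewhere in the chromosome 9 cluster, *Mmp27* stood at 0.78 to 1.58 CPM in WT and 0.649 to 3.99 CPM in *ApoE-/-* mice, with overlap only through *ApoE-/-* replicate 1 (log2 fold change 0.85, SE 0.50, adjusted p = 0.628 in edgeR), and *Mmp1b*, *Mmp7*, *Mmp10* and *Mmp20* had 3 counts or fewer in every library. *Mmp28*, epilysin, had the only negative log2 fold change (-0.38, SE 0.14, adjusted p = 0.314 in edgeR). DESeq2 called *Mmp28* in 1 of the 8 fits without a mouse. *Mmp25*, a membrane-anchored enzyme of leukocytes, stood at 0.392 to 1.02 CPM in *ApoE-/-* and 0.277 to 0.527 in WT mice (log2 fold change 0.76, SE 0.36, adjusted p = 0.494).

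The membrane-bound members *Mmp15*, *Mmp16* and *Mmp24* were high in *ApoE-/-* replicate 1 alone, the library that stood apart. They reached 132, 33.5 and 10.2 CPM there against 15.9 to 33.1, 10.6 to 20.1 and 0.868 to 3.42 CPM in the other 7 libraries. Their log2 fold changes (0.70, 0.47 and 0.30) did not pass the edgeR test (adjusted p = 0.812, 0.715 and 0.932), and without that library those of *Mmp15* and *Mmp24* were -0.74 and -1.06 (adjusted p = 0.118 and 0.100 in edgeR, 0.0313 and 0.0186 in DESeq2). In the same fit DESeq2 called *Mmp27* higher (log2 fold change 1.16, adjusted p = 0.0366), and edgeR called 0 of the 8 (4 had an unadjusted p under 0.05). *Mmp17* and *Mmp21* had log2 fold changes of 0.16 and 0.32 (edgeR adjusted p = 0.876 and 0.804).

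Among 10 inhibitors, edgeR called 1, *Timp1*, the inducible inhibitor, and their median log2 fold change was 0.401. *Timp1* was the one inhibitor above the WT range in every *ApoE-/-* mouse, at 37.7 to 107.7 against 6.32 to 8.94 CPM (log2 fold change 3.36, SE 0.35, adjusted p = 0.0353 in edgeR). edgeR called it in 2 of the 8 fits without a mouse and not with the replicate number as a block, and DESeq2 in all 8. *Timp2*, which also serves MT1-MMP in the activation of pro-MMP2, was at 379 to 801 and 448 to 490 CPM (log2 fold change 0.47, SE 0.23, adjusted p = 0.532). *Timp3*, the matrix-bound inhibitor, and *Reck*, a membrane-anchored one, had log2 fold changes of 0.11 and 0.15 (edgeR adjusted p = 0.940 and 0.897). *Timp4* was lower in all *ApoE-/-* mice, at 79.6 to 133 against 158 to 196 CPM, which missed the edgeR threshold (log2 fold change -0.74, SE 0.17, adjusted p = 0.0970) and passed that of DESeq2 (adjusted p = 0.00371). In the fit without *ApoE-/-* replicate 1, edgeR called 4 of the 10, *Timp1*, *Timp2* (log2 fold change 0.66, adjusted p = 0.0379) and *Serpine2*, an inhibitor of plasminogen activators, higher and *Timp4* (-0.62, adjusted p = 0.0414) lower.

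Set against *Timp1*, the log2 ratio of *Mmp12* was -2.02, 0.11, -0.27 and 0.63 in *ApoE-/-* replicates 1 to 4 and -2.24, -2.31, -1.87 and -3.41 in WT replicates 1 to 4. Replicate 1 of the *ApoE-/-* mice lay within the WT range, and the mean difference of 2.07 did not reach the threshold (exact permutation over the mice, two-sided p = 0.0571 before and after adjustment over 3 ratios).

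**Figure D4:**
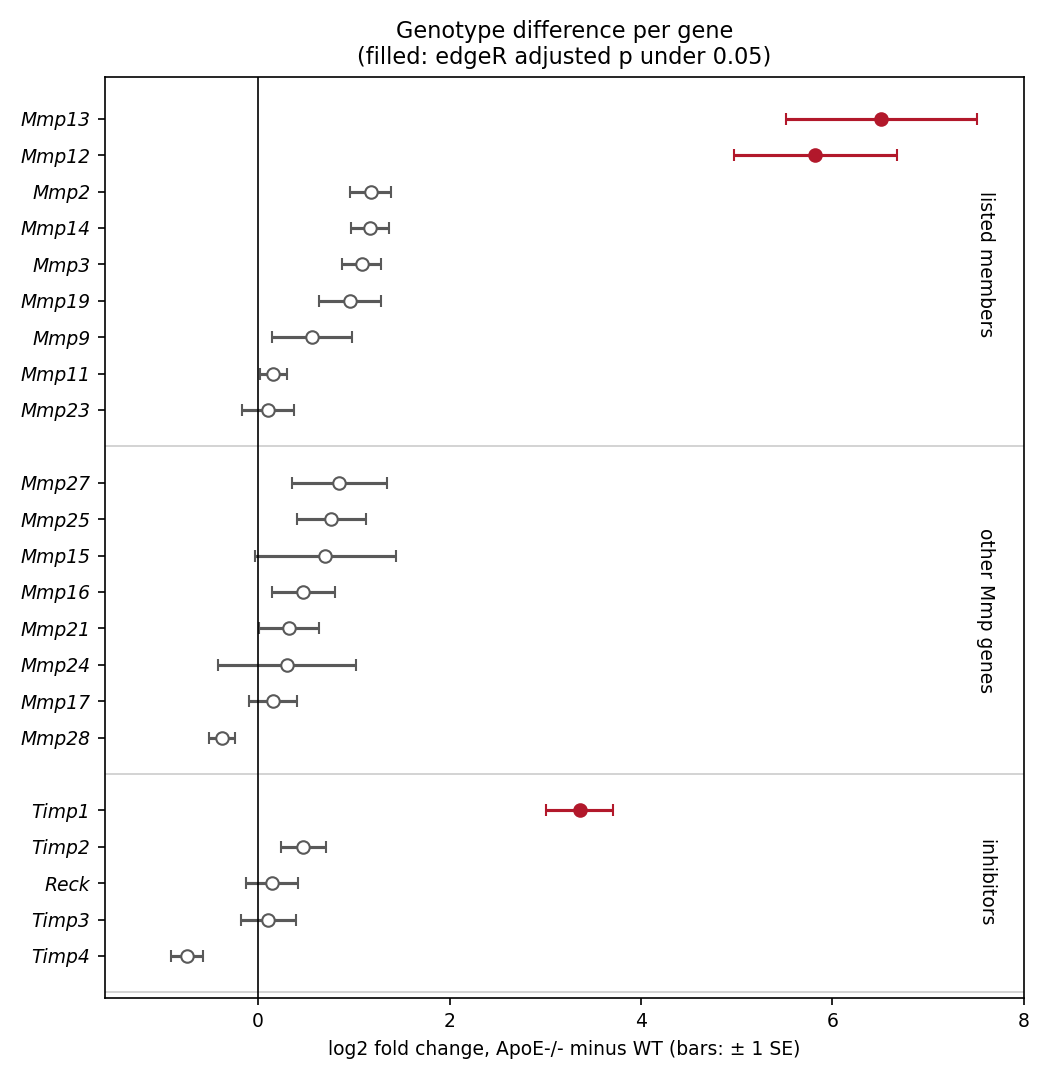
Log2 fold change between *ApoE-/-* and WT aorta (x axis, bars ± 1 SE) for the 9 listed genes that were tested, the 8 other Mmp genes that were tested and 5 inhibitors, filled where the edgeR adjusted p is under 0.05. *Mmp13* (6.51), *Mmp12* (5.82) and *Timp1* (3.36) are the filled points, and *Mmp2*, *Mmp14* and *Mmp3* sit near 1 with short bars.

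The partners of these enzymes were read from lists in the same fit. Of 10 tested genes that activate or anchor proenzymes, edgeR called 0 (3 had an unadjusted p under 0.05), DESeq2 called 1, and the median log2 fold change was 0.0757. *Cd44*, a surface docking protein of MMP9 and MMP14, was at 83.3 to 200 and 44.9 to 48.3 CPM (log2 fold change 1.47, SE 0.25, adjusted p = 0.0526 in edgeR), and *Plaur*, the urokinase receptor, at 9.17 to 18.5 and 8.81 to 9.64 CPM (0.62, SE 0.21, adjusted p = 0.280). With *ApoE-/-* replicate 1 left out, edgeR called 3 of the 10, *Cd44*, *Plaur* and *Plat*, the tissue plasminogen activator, all higher. Of 20 matrix substrates, edgeR called 0 (5 had an unadjusted p under 0.05) and DESeq2 1, but 18 had a positive log2 fold change, with a median of 0.642. *Col3a1* and *Col1a1*, the fibrillar collagens that collagenases open, had log2 fold changes of 1.36 (SE 0.32, adjusted p = 0.107 in edgeR) and 1.23 (SE 0.41, adjusted p = 0.264). *Eln*, the substrate of MMP12, named here after its values were seen, stood at 393, 1674, 1610 and 1257 CPM in *ApoE-/-* and at 475 to 798 CPM in WT mice, with overlap through replicate 1 (log2 fold change 1.09, SE 0.43, adjusted p = 0.370 in edgeR). Without that library, edgeR called 5 of the 20 higher, *Eln* (log2 fold change 1.39, adjusted p = 0.0170), *Fbn1*, *Col1a1*, *Col1a2* and *Col3a1*, and DESeq2 called 11.

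Of 14 tested transcription factors known at Mmp promoters, edgeR called *Runx1*, at 31.5 to 71.6 against 9.81 to 13.9 CPM (log2 fold change 1.95, SE 0.27, adjusted p = 0.0381), and the list's median log2 fold change was 0.0987. DESeq2 also called *Spi1* higher and *Ets1* lower, named here after their values were seen. None of the tested AP-1 subunits (*Fos*, *Fosb*, *Fosl2*, *Jun*, *Junb*, *Jund*) was without overlap between genotypes with all mice, and *Fosl2* was without overlap, higher, once *ApoE-/-* replicate 1 was left out (log2 fold change 0.46, adjusted p = 0.178 in edgeR). All 7 tested cytokines that induce Mmp genes had a positive log2 fold change (median 1.47), and edgeR called *Il6*, at 3.11 to 6.58 against 0 to 0.281 CPM (log2 fold change 4.87, SE 0.71, adjusted p = 0.0396). DESeq2 called *Il6*, *Spp1* and *Il1b*, the last named after its values were seen. Without *ApoE-/-* replicate 1, edgeR also called *Spi1* and *Spp1*, both higher. *Runx1* and *Il6* were each called by edgeR in 1 of the 8 fits without a mouse, and by DESeq2 in all 8.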

How the data were processed

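Total RNA of 8 aortas was sequenced by the authors from stranded, ribodepleted libraries (Illumina TruSeq, paired-end), and the deposited values are raw counts of read pairs per gene in each mouse, without normalization or pooling. The submitters' processing notes name TopHat2, HTSeq and the builds GRCm38 and mm10, and the versions are not given in the sources used here. Pairs not counted on a gene made up 64.4% to 72.1% of a library, most of them in the counter's class of pairs with no gene feature and the rest shared by several genes or places, and were left out of library sizes and tests. Genes were matched to GENCODE M21 (GRCm38), where 21817 of 21859 identifiers were found.

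Counts were analysed with R 4.3.3 and edgeR 4.0.16 (filterByExpr, TMM, glmQLFit with robust estimation, glmQLFTest, two-sided), with genotype as the only factor and Benjamini-Hochberg adjustment over all 15077 genes kept. A standard error is the log2 fold change divided by the square root of F. DESeq2 1.42.0 and limma 3.58.1 (voom), other scalings and filters, a block for the replicate number and fits without each mouse were the alternatives. Log2 CPM used a prior count of 2. Ratios were compared by exact permutation over 70 assignments. Counting intervals are exact binomial ones at 95%. The scripts were checked on simulated counts. Promoters are from RefSeq (GRCm38.p6), and motifs were searched in 250 bases before each start with Python 3.11.15.

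Named were the 10 members, *Apoe*, the TIMPs and *Reck*, other Mmp genes tested, in each further list up to 4 called genes or else the 2 with the smallest p, the 5 genes closest to *Mmp12* and to *Mmp2*, and a few cell type markers. The members and the lists were chosen with earlier results of these data known. Dissection and sequencing batches are not given in the sources used here.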

Additional observations from a re-analysis of the deposited data

Results flagged for a closer look

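For the listed and other tested Mmp genes, *Apoe*, the TIMPs, *Reck*, the ratios and the marker lists, the gap between the most distant of the 4 mice of a genotype and its nearest neighbour was divided by the range of the 4. Of 96 such quotients, 11 were above the 95% limit of Dixon's test, where chance gives 4.8.

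Among the listed metalloproteinases, it was 0.861 for *Mmp9* in *ApoE-/-* replicate 4 (16.4 CPM against 5.51 to 7.02 in the other *ApoE-/-* mice) and 0.840 for *Mmp13* in the same library (23.7 against 2.80 to 6.14 CPM). It was 0.874 for the ratio of *Mmp12* to the macrophage markers in *ApoE-/-* replicate 1, at -1.62 against 0.32 to 0.60 on the log2 scale. *Timp1* in WT replicate 2 gave 0.888 (8.94 against 6.32 to 6.61 CPM). Of the other Mmp genes, *Mmp15* gave 0.980 (132 against 15.9 to 18.2 CPM) and *Mmp24* 0.906 (10.2 against 0.868 to 1.74 CPM), both in *ApoE-/-* replicate 1.

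Among marker lists, as mean log2 CPM, the value was 0.914 for chondrocytes in *ApoE-/-* replicate 3 (5.0 against 2.45 to 2.67), 0.937 for cardiac muscle in *ApoE-/-* replicate 1 (3.61 against 1.37 to 1.51), 0.968 for endothelium in *ApoE-/-* replicate 4 (7.78 against 7.47 to 7.48), 0.895 for osteoclasts in WT replicate 4 (5.47 against 5.09 to 5.13) and 0.903 for T cells in WT replicate 3 (-0.98 against -0.12 to -0.033).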

How the results depend on the processing

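The number of called metalloproteinases was 2 in edgeR, 6 in DESeq2, 0 in limma-voom and 1 (*Mmp13*) without a filter on low counts, and it stayed at 2 with the other scalings, another filter or no robust estimation. For the lists of other Mmp genes and partners it was 3, against 10 in DESeq2, and for all genes 70, against 721 in DESeq2 and 27 in limma-voom. In limma-voom 6 of the 9 members had an unadjusted p under 0.05, as in edgeR, where 1643 and 1713 of all 15077 genes had one. Leaving out each mouse in turn, edgeR called 0 to 5 members, 0 to 16 partners and 0 to 593 genes in all. The highest counts came without *ApoE-/-* replicate 1, and the other 7 fits called no member. In each of those 7, 6 of 9 members had an unadjusted p under 0.05, as had 1269 to 1922 of all genes. DESeq2 without each mouse, an alternative chosen after seeing the data, called 5 to 7 members. It called 1548, 705, 529 and 677 genes without *ApoE-/-* replicates 1 to 4 and 474, 483, 457 and 431 without WT replicates 1 to 4, and 32 partners without *ApoE-/-* replicate 1, 11 without WT replicate 3, 9 without WT replicate 4 and 10 in each of the other 5 fits. *Mmp2*, *Mmp3*, *Mmp12*, *Mmp13* and *Mmp14* were called by DESeq2 in all 8 of these fits. The scaling that moved the median log2 fold change of all genes most, upper-quartile factors, moved it by -0.0361.

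The direction of all members tested held under every alternative except for *Mmp23*, whose log2 fold change was -0.017 without *ApoE-/-* replicate 3 in edgeR, -0.024 in DESeq2 without that library and -0.00043 in DESeq2 without replicate 4. Over the edgeR fits without 1 mouse it ranged from -0.017 to 0.33. The difference in the ratio of *Mmp12* to macrophage markers was 3.46 to 4.36, and that of *Mmp2* to fibroblast markers 0.49 to 0.68, when each mouse was left out, with an exact permutation p of 0.0571 in all these fits, the smallest that 4 mice against 3 allow.

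Both genotypes carry replicates 1 to 4, which are 8 different mice. Deviations of same-numbered libraries correlated by -0.448 to 0.316, and 1 of the 4 *ApoE-/-* libraries was closest to its own number. This gave no sign that the numbers pair the mice, but so few libraries cannot exclude it. With the replicate number as a block, edgeR called 2 genes in all, 0 members and 0 partners (unadjusted p under 0.05 in 1723 genes, 6 members and 20 partners).

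With 4 mice per genotype, *Mmp8* and WT *Mmp13* rested on a few counts each, and the intervals of their ratios cover counting error only. Levels per kilobase depend on the annotated exons. *Mmp2*, *Mmp3* and *Mmp14* pass the edgeR threshold without *ApoE-/-* replicate 1 and in none of the other fits without 1 mouse.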

Other observations

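The other cell types of the aorta were read from marker lists in the same fit, since the metalloproteinases were measured in whole tissue. Endothelial markers had 7 of 7 negative log2 fold changes (median -0.366) and overlapping sums (1567 to 2435 CPM in *ApoE-/-* and 2212 to 2770 in WT mice), with 3 genes without overlap, 0 called by edgeR (4 had an unadjusted p under 0.05) and 3 called by DESeq2. Without *ApoE-/-* replicate 1, edgeR called 2 of them lower, *Kdr* and *Emcn*, named after their values were seen. Smooth muscle markers overlapped in all 7 genes (median log2 fold change -0.115, 0 called by edgeR, 0 with an unadjusted p under 0.05, 0 called by DESeq2). Adipocyte markers (median -0.519), mesothelial markers (-0.819) and skeletal muscle markers (-0.0328) held no gene called by edgeR, with 0, 1 and 2 genes at an unadjusted p under 0.05, and DESeq2 called 0, 0 and 1.

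T cell markers had 5 of 5 positive log2 fold changes (median 0.657) and B and plasma cell markers 5 of 5 (median 1.12). All 10 overlapped between genotypes and none was called by edgeR (2 in each list had an unadjusted p under 0.05) or by DESeq2. The 3 osteoclast markers tested had a median of 0.492 and the 7 chondrocyte markers 0.628, with no call by either tool and with 1 and 2 genes at an unadjusted p under 0.05. The 5 sympathetic neuron markers had a median of 1.37, which rested on *ApoE-/-* replicate 1, and none was called or had an unadjusted p under 0.05. Without that library it was -1.93. Counts of called genes by list without *ApoE-/-* replicate 1 were added after seeing the data. In that fit edgeR called no gene of the smooth muscle, adipocyte, mesothelial, skeletal muscle, T cell, B and plasma cell, osteoclast, chondrocyte or neuron lists (0 to 4 genes of each had an unadjusted p under 0.05), and DESeq2 called 2 mesothelial, 1 skeletal muscle, 2 osteoclast and 2 chondrocyte markers.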
